A study of Rattus norvegicus with 6 samples.

Results

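Heat shock proteins and their cochaperones are represented here by 10 genes, chosen by name: Hsf1, Hspb1, Hspa8, Hsp90aa1, Hsp90ab1, Hsph1, Dnajb1, Hspd1, Hspe1 and Bag3. All 10 were found among the 22536 genes of the deposited table, and all 10 passed the filter on low values, which asked for 1 FPKM or more in 3 or more libraries. RNA sequencing was done on 3 male rats with PDN, which stands for painful diabetic neuropathy, a nerve disease with pain in diabetes, and on 3 male control rats. The labels name the tissue of all 6 samples as sensory neuron, and the series title names the dorsal root ganglion, which holds the cell bodies of sensory neurons. The sources used here do not say how diabetes was induced, which strain and age the rats had or what the controls received. All 12 sensory neuron markers were found, led by the neurofilament gene Nefl at 1690 to 2034 FPKM in PDN and 1806 to 2018 FPKM in controls. FPKM counts fragments per length of transcript and per size of library, so levels of different genes can be set side by side.

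Heat shock proteins are molecular chaperones, which bind unfolded or partly folded proteins and help them fold, stay soluble or be cleared. Under protein-damaging stress the transcription factor HSF1 binds repeats of the letters GAA and TTC in the promoters of its target genes, called heat shock elements, and raises their transcription. Sensory neurons keep long axons supplied with folded protein, and the small heat shock protein HSPB1 is known in them, because inherited variants of its gene cause peripheral neuropathy in humans.

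The promoters show what these genes share in sequence. RefSeq promoter windows of build GRCr8, from 250 bases before to 50 bases after a gene's start, were matched for 8 of the 10 genes, without Hsf1 and Hsp90aa1. They were searched on both strands for GAANNTTC or TTCNNGAA, which are each their own reverse complement, and for a long form of 13 bases, in which the short form is followed by NN and a further GAA or TTC, so that the units alternate. The long form was found in 4 of the 8 windows, those of Hspa8, Hsph1, Hspd1 and Hspe1, against 0.798% of all 33469 windows. The short form was found in 7 of the 8, all but Hsp90ab1, against 15.9% of all windows. A match is a description of letters and not a measured binding site. Stretches of the 7 windows follow, because they hold the repeats that HSF1 is known to recognise. Each is written 5′ to 3′ on the strand of its gene, with the matched letters in capitals.
Hspa8 (chr8:50080294-50080483, plus strand): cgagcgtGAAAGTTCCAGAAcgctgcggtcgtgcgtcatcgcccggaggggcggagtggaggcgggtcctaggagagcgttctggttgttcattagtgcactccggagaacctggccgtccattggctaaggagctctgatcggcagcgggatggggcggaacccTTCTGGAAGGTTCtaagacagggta
Hsph1 (chr12:10427258-10427357, plus strand): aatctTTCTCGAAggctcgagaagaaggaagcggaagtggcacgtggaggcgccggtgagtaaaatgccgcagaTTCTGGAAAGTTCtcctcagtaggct
Hspe1 (chr9:64084256-64084285, plus strand): gctcggTTCTAGAACCTTCCGGAAggcccc
Hspd1 (chr9:64084256-64084285, minus strand): ggggccTTCCGGAAGGTTCTAGAAccgagc
Hspb1 (chr12:26432397-26432436, minus strand): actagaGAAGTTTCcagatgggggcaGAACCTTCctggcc
Bag3 (chr1:192533321-192533350, plus strand): gggaccaGAAGTTTCtagccggccagttgc
Dnajb1 (chr19:41431142-41431171, minus strand): cgacgcatcgggaggggcgGAAGGTTCtgg

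Positions count from -1 at the base just before the start of a gene. Hspd1 and Hspe1 lie head to head on opposite strands in RefSeq, and their promoter windows overlap by 211 bases. The 18 capital letters of Hspd1 are the reverse complement of those of Hspe1, so both genes share 1 run of repeats. It begins at position -65 of Hspe1. Hspa8 holds the long form at 2 places, beginning at positions -213 and -55. In Hsph1 the long form begins at -36 and a short one at -105. Hspb1 has the short form at -129 and -109, Bag3 at -132 and Dnajb1 at -11. Dnajb1 has another short match from base 18 to base 25 after its start, which is not printed.

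The tissue carried high levels of chaperone RNA in both groups. The 10 genes together made up 0.549% to 0.596% of all FPKM in PDN libraries and 0.578% to 0.623% in control libraries. Hsp90ab1, the constitutive cytosolic HSP90, was the most abundant, at 705 FPKM over the 6 libraries, and ranked 27 among the 22536 genes. Hspa8, the constitutive cytosolic HSP70, followed at 528 FPKM (rank 49) and Hsp90aa1, the inducible HSP90, at 396 FPKM (rank 67). Hspb1 stood at 143, Hsph1 at 101, Hspd1 at 84.5, Bag3 at 33.9, Dnajb1 at 20.8, Hsf1 at 8.15 and Hspe1 at 8.01 FPKM. In this order the ranges of neighbouring genes over the 6 libraries did not overlap, except those of Hsph1 with Hspd1 and of Hsf1 with Hspe1.

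**Figure D1:**
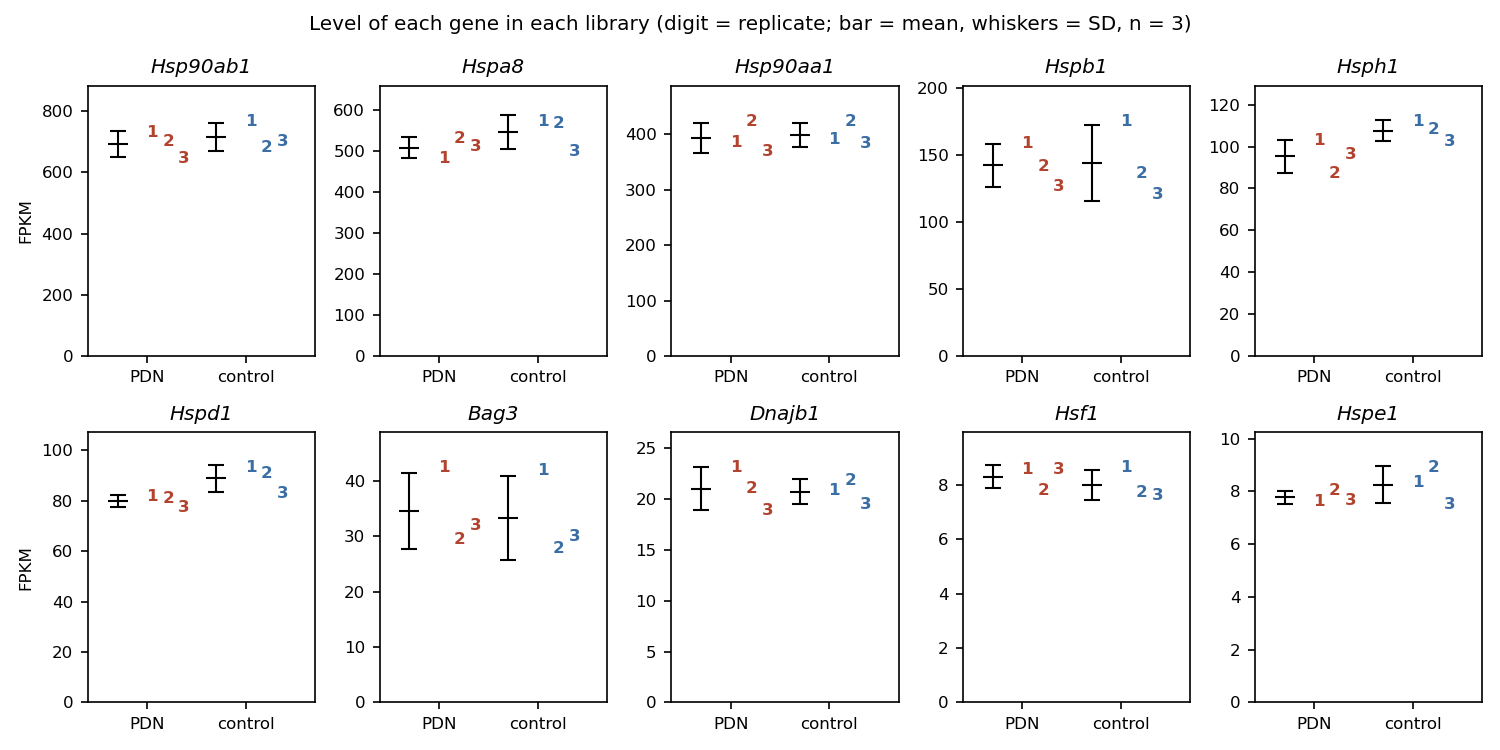
FPKM (linear axis from 0) of the 10 genes in the 3 PDN and 3 control libraries, ordered by mean level. Digits are replicates, the short bar is the mean and the whiskers are the SD (n = 3). Only for Hspd1 do the 3 PDN values, at 77.4 to 81.8, all lie below the 3 control values, at 82.7 to 93.2.

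The comparison asked whether heat shock genes differ between PDN and control tissue. None of the 10 genes passed an adjusted p of 0.05 in limma, where 0% of all 13282 genes tested passed. None of the 10 passed an unadjusted p of 0.05 either, where 4.72% of all genes did. Their log2 fold changes ran from -0.17 to 0.06 with a median of -0.04, against a median of -0.02 over all genes tested. The median of the 10 was -0.015 with median-of-ratios scaling, where that of all genes was 0.0024, and -0.018 with upper-quartile scaling. With 1 library left out at a time it ran from -0.094 without control 3 to 0.011 without PDN 3. The median of the 10 was also more negative without PDN 1, at -0.074, and without PDN 2, at -0.068. It was less negative without control 1, at -0.018, and without both control 2 and PDN 3, at -0.012. The estimate was lower in PDN for 7 of the 10 genes and for 56.6% of all genes. With median-of-ratios or upper-quartile scaling it was lower for 6 of the 10, since Hspb1 changed sign. It was lower for 4 of the 10 without PDN 3 and for 5 without control 1, and for 9 of the 10 without either PDN 1 or control 3. In bulk tissue, fewer cells of a type and less RNA per cell cannot be told apart.

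**Figure D2:**
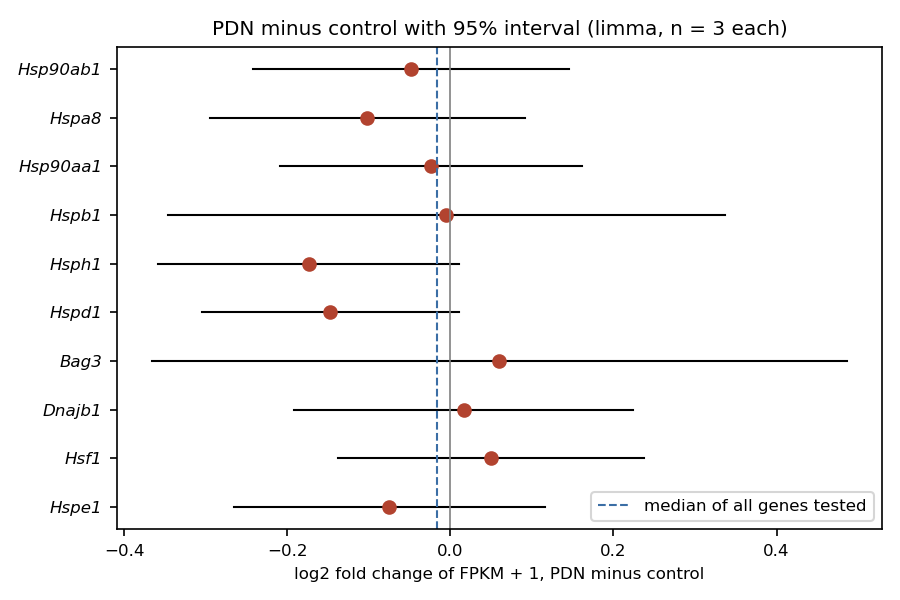
Log2 fold change of FPKM + 1, PDN minus control, for the 10 genes with its 95% interval from limma (n = 3 each). All 10 intervals include 0, and those of Bag3 and Hspb1 are the widest.

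Hsf1, the gene of the heat shock transcription factor itself (chromosome 7, 117538523 to 117565478 as the file gives it, with no build stated, as for the loci of the other genes), was at 8.56, 7.81 and 8.56 FPKM in PDN 1 to 3, against 8.63, 7.73 and 7.62 FPKM in control 1 to 3. The groups overlapped, and all 6 values lay within 1.13-fold of each other. The log2 fold change was 0.05 ± 0.08 (SE, n = 3 each), its 95% interval ran from -0.14 to 0.24, and limma gave an adjusted p of 0.999. HSF1 is controlled largely at the protein level, by release from chaperones and by phosphorylation, which RNA sequencing does not measure.

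Hspa8 (chromosome 8, 44990014 to 44993179) encodes HSC70, which folds new proteins and uncoats clathrin vesicles at synapses. It was at 482, 532 and 513 FPKM in PDN 1 to 3, against 573, 568 and 499 FPKM in control 1 to 3. Control 1 and control 2 were above all PDN libraries, and control 3 fell among them. This was a log2 fold change of -0.10 ± 0.08 (SE; 95% interval -0.30 to 0.09), and the adjusted p in limma was 0.999.

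Hsph1 (chromosome 12, 6322668 to 6341902) encodes HSP105, which swaps the nucleotide of HSP70 so that its client is released. It was at 103, 87.0 and 96.4 FPKM in PDN 1 to 3, against 112, 108 and 102 FPKM in control 1 to 3. It had the lowest estimate of the 10 genes, but the groups overlapped, because PDN 1 was just above control 3. This was a log2 fold change of -0.17 ± 0.08 (SE; 95% interval -0.36 to 0.01), and the adjusted p was 0.999 in limma (unadjusted 0.0613). The interval reaches, in FPKM + 1, from 0.780 to 1.01 times the control level.

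Dnajb1 (chromosome 19, 24747178 to 24750919) encodes HSP40, the J-domain protein that hands clients to HSP70 and starts its ATPase. It was at 23.1, 21.0 and 18.9 FPKM in PDN 1 to 3, against 20.9, 21.9 and 19.4 FPKM in control 1 to 3. The highest and the lowest value both came from PDN libraries. The log2 fold change was 0.02 ± 0.09 (SE), with an adjusted p of 0.999 in limma.

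The HSP90 pair, which matures kinases and steroid receptors, differed between the groups by less than the spread within them. Hsp90aa1 was at 386, 423 and 370 FPKM in PDN 1 to 3, against 391, 424 and 383 FPKM in control 1 to 3, with a log2 fold change of -0.02 ± 0.08 (SE). Hsp90ab1 (chromosome 9, 17817721 to 17823243) was at 732, 701 and 646 FPKM in PDN 1 to 3, against 768, 682 and 700 FPKM in control 1 to 3, with a log2 fold change of -0.05 ± 0.08 (SE). The ranges of the groups overlapped for both genes, and both adjusted p-values were 0.999 in limma. The file's locus of Hsp90aa1 (chromosome 6, 135107271 to 135112775) lies wholly inside that of Dync1h1 (134958854 to 135112914), a motor gene at 177 to 235 FPKM. The sources used here do not say whether counting used the strand, so fragments of the 2 genes may be mixed.

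Hspd1 and Hspe1 encode HSP60 and HSP10, the barrel and the lid of the chaperonin that folds proteins in the mitochondrial matrix. Hspd1 was at 81.8, 81.1 and 77.4 FPKM in PDN 1 to 3, against 93.2, 90.8 and 82.7 FPKM in control 1 to 3. Its 3 PDN values lay below its 3 control values, the 1 case among the 10 genes, where 6.24% of all genes tested separated in that direction and 9.93% in either. This was a log2 fold change of -0.15 ± 0.07 (SE; 95% interval -0.30 to 0.01), and the adjusted p was 0.999 in limma (unadjusted 0.0637).

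Hspe1 was at 7.61, 8.05 and 7.66 FPKM in PDN 1 to 3, against 8.35, 8.90 and 7.52 FPKM in control 1 to 3. The groups overlapped through control 3, and the log2 fold change was -0.07 ± 0.08 (SE), with an adjusted p of 0.999 in limma. Its level was far below that of its partner, with an Hspd1 to Hspe1 ratio of 10.3 ± 0.383 in PDN libraries, against 10.8 ± 0.512 in control libraries (SD, n = 3 each). The file gives Hspe1 a locus (chromosome 9, 61679974 to 61694599) that contains all of the Hspd1 locus (61680530 to 61690956), whereas RefSeq sets the 2 genes head to head. The sources used here do not say how fragments were shared between the overlapping loci, so the level of Hspe1 and this ratio are uncertain.

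Hspb1 (chromosome 12, 23839399 to 23841049) encodes HSP27, a small chaperone that holds unfolded proteins and guards the cytoskeleton of axons. It was at 158, 141 and 127 FPKM in PDN 1 to 3, against 175, 136 and 120 FPKM in control 1 to 3. The control range enclosed the PDN range, and the means were 142 ± 16 FPKM in PDN and 144 ± 28.3 FPKM in controls (SD, n = 3 each). This was a log2 fold change of -0.005 ± 0.15 (SE; 95% interval -0.35 to 0.34). The adjusted p was 1.00 in limma. Without control 1 the estimate was 0.15, with an adjusted p of 0.809.

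Bag3 (chromosome 1, 199941161 to 199965191) encodes a cochaperone that joins HSP70 to small heat shock proteins and sends damaged proteins to autophagy. It was at 42.3, 29.3 and 32.0 FPKM in PDN 1 to 3, against 41.9, 27.8 and 30.0 FPKM in control 1 to 3. In each group 1 library stood above the other 2, and the 2 high libraries, PDN 1 and control 1, were nearly equal. This was a log2 fold change of 0.06 ± 0.18 (SE; 95% interval -0.37 to 0.49), and the adjusted p in limma was 0.999. Without PDN 1 the estimate was -0.09, and without control 1 it was 0.23.

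Bag3 and Hspb1 were the most variable of the 10 genes. Their SD within groups on the log2(FPKM + 1) scale was 0.289 for Bag3 and 0.225 for Hspb1, larger than in 92.8% and 86.8% of all genes tested. The other 8 genes lay at 0.0699 to 0.114, each under the median of 0.119 over all genes tested. Hspb1, Hsp90ab1 and Bag3 all had their 2 highest values in PDN 1 and control 1. The summed FPKM of 12 sensory neuron markers was also highest in those 2 libraries, at 8102 in PDN 1 and 7000 to 7801 in the other PDN libraries, and at 8292 in control 1 and 7218 to 7406 in the other controls. Of these markers, Nefh, Nefm, Nefl and Rbfox3 had their 2 highest values in PDN 1 and control 1, and the others did not. Tac1 was lowest in PDN 1, at 155 FPKM. Calca was highest in PDN 3 and Isl1 in PDN 2. The part of neuron content in these levels was not tested.

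A different set of libraries was highest for the genes with the long repeat. Hspa8, Hsph1, Hspd1 and Hspe1 all had their 2 highest values in control 1 and control 2, which no other of the 10 genes did. They also had the 4 lowest estimates, at -0.07 to -0.17 on the log2 scale. This is not a separate trait, because high values in 2 controls lower the estimate. Hsf1 and Hsp90aa1 had no matched window, so whether they hold the long repeat is not known. This grouping was seen in the values and has no test. Hspd1 and Hspe1 share their promoter and an overlapping locus and are not separate examples of it. Across the 6 libraries, which share this tissue and protocol, Pearson's r of log2(FPKM + 1) was 0.9 for Hspa8 with Hspe1, the highest of all pairs. It was -0.587 for Hsf1 with Hsp90aa1, the lowest. Within the 4 genes with the long repeat it was lowest for Hspa8 with Hsph1, at 0.366. These values include the difference between the groups. After the mean of each group was subtracted, r was -0.076 for Hspa8 with Hsph1 and 0.044 for Hsph1 with Hspe1. For the other pairs of the 4 it ran from 0.440 for Hsph1 with Hspd1 to 0.866 for Hspa8 with Hspe1.

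**Figure D3:**
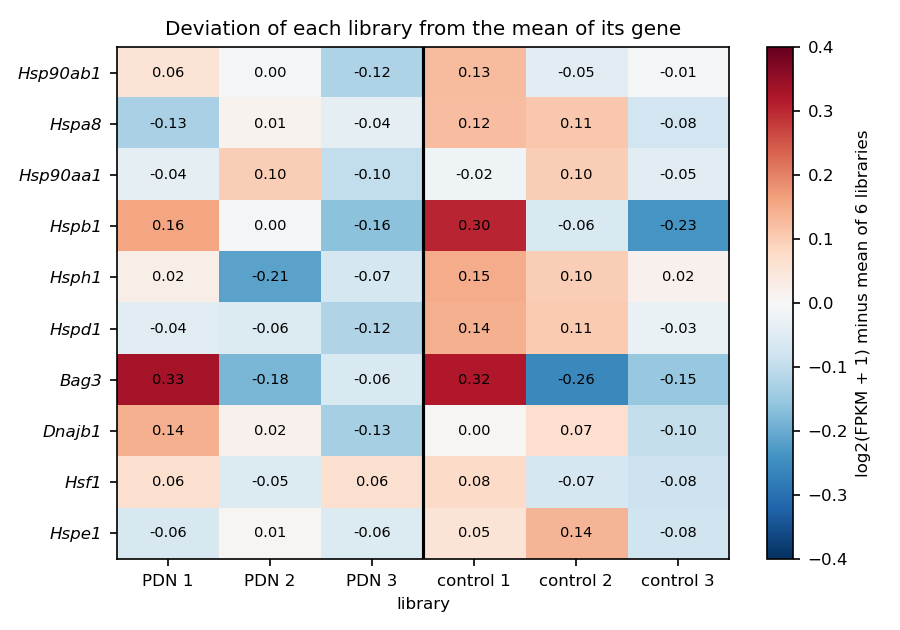
Deviation of log2(FPKM + 1) from the mean of 6 libraries for the 10 genes (down) in PDN and control libraries (across). Bag3 stands at 0.33 in PDN 1 and 0.32 in control 1 and below 0 in the other 4 libraries, whereas Hspa8 and Hspd1 are highest in control 1 and control 2.

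Control 1 was the highest library for 6 of the 10 genes, and PDN 3 the lowest for 4. The mean deviation of the 10 genes was 0.05, -0.04 and -0.08 in PDN 1 to 3, against 0.13, 0.02 and -0.08 in control 1 to 3. The number of fragments per library is not given in the sources used here. Skeletal muscle RNA set control 2 and PDN 3 apart, with 10 muscle genes summing to 33.6, 2.19 and 174 FPKM in PDN 1 to 3, against 1.98, 537 and 2.03 FPKM in control 1 to 3. Mb and Tnni2 of that list were at 0 in PDN 2, control 1 and control 3. Bag3, which muscle also expresses, was lowest in control 2, the library richest in muscle genes. The part of muscle RNA in its level was not tested. Without control 2 and PDN 3, none of the 10 genes passed the threshold, and Hspb1, Hsp90aa1 and Bag3 changed sign. PDN 1, at 33.6 FPKM for the 10 muscle genes, was kept in that setting, so it was not free of muscle RNA.

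Markers of other cells also differed in summed level, and their part in the heat shock results was not tested. The sum of 7 macrophage markers, led by Csf1r, was 18.4 to 25.1 FPKM in PDN and 28.2 to 38.8 FPKM in controls. The sum of 6 fibroblast markers, led by Dcn, was 318 to 360 FPKM in PDN and 370 to 411 FPKM in controls. Neither sum overlapped between the groups, but single markers did. Dcn was at 115 to 162 FPKM in PDN and 139 to 173 FPKM in controls. Col1a1 and Col1a2 were highest in PDN 3, and the macrophage markers Cd163 and Mrc1 in PDN 1. Col3a1, Lum, Csf1r, Aif1, Cx3cr1 and Adgre1 were lower in every PDN library than in every control. Among all genes tested, 6.24% separated in this direction. The margin was narrow for Aif1, at 9.26 FPKM in PDN 3 and 9.47 FPKM in control 2. It was also narrow for Adgre1, at 2.93 FPKM in PDN 3 and 3.06 FPKM in control 2. The sums overlapped for 6 satellite glia markers, led by Glul, at 221 to 236 FPKM in PDN and 224 to 275 FPKM in controls. Of these, Kcnj10, Ptprz1 and Gfap were lower in every PDN library than in every control. Gfap separated narrowly, at 5.51 FPKM in PDN 3 and 5.52 FPKM in control 1. Glul, Fabp7 and Cdh19 overlapped. The sums also overlapped for 5 red blood cell markers, led by Hba-a1, at 86.7 to 206 FPKM in PDN and 176 to 281 FPKM in controls. Of these, Hbb-b1 alone was lower in every PDN library than in every control.

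The 5 ratios between partner chaperones within a library, which do not depend on library scaling, gave no p below 0.2 in an exact permutation test (two-sided). The smallest p that 3 against 3 allows is 0.1, and the adjusted p over the 5 ratios was 0.8 for each. Hsp90aa1 to Hsp90ab1 was 0.568 ± 0.0381 in PDN libraries, against 0.559 ± 0.0573 in control libraries (SD, n = 3 each). Dnajb1 to Hspa8 was 0.0414 ± 0.00576 in PDN and 0.0379 ± 0.00135 in controls. PDN 1 had 0.0479, against 0.0396 in PDN 2 and 0.0368 in PDN 3. The log2 difference of 0.12 was 0.0099 without PDN 1, 0.20 without PDN 3 and 0.21 without both control 2 and PDN 3. Hsph1 to Hspa8 was 0.188 ± 0.0250 in PDN and 0.197 ± 0.00732 in controls. Bag3 to Hspa8 was 0.0685 ± 0.0172 in PDN and 0.0607 ± 0.0121 in controls.

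The other genes of the chaperone system were examined as 7 lists. Of 69 genes in them, 68 were found and 63 were tested, and 0 passed the adjusted threshold in limma. At an unadjusted p of 0.05, 1 was higher and 2 were lower, against 1.83% higher and 2.89% lower of all genes tested. Their median log2 fold change was -0.03, against -0.02 over all genes tested. Of the 63, 43 (68.3%) had a lower estimate, against 56.6% of all genes. With median-of-ratios and upper-quartile scaling 37 and 38 of the 63 were lower. The median of the 63 was -0.0088 and -0.012 with those scalings and -0.020 in the deposited table of whole numbers. It ran from -0.069 without control 3 to -0.0089 without PDN 1 when 1 library was left out. It was also -0.062 without PDN 2, -0.014 without control 2, -0.020 without PDN 3 and -0.0096 without both control 2 and PDN 3, where 33 of the 63 were lower. Hspa12b, an HSP70 relative found in endothelium, was at 2.95, 2.83 and 2.92 FPKM in PDN 1 to 3, against 1.94, 2.35 and 2.19 FPKM in control 1 to 3. Its log2 fold change was 0.31 ± 0.09 (SE), the adjusted p was 0.999 in limma, and all its PDN values lay above its control values, as in 3.69% of all genes tested. The summed level of 5 endothelial markers, led by Cldn5, ran from 42.0 to 48.2 FPKM in PDN and from 41.5 to 52.5 FPKM in controls. Its members went opposite ways. Cldn5 was at 25.7 to 28.3 FPKM in PDN and 19.5 to 25.5 FPKM in controls. Cdh5 was at 4.46 to 5.62 against 5.93 to 6.76 FPKM, and Egfl7 at 1.92 to 2.76 against 2.98 to 3.50 FPKM. Kdr and Flt1 overlapped between the groups. The part of endothelium in the level of Hspa12b was not tested.

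By list, the median log2 fold change was -0.12 over 4 tested small heat shock genes, -0.01 over 11 HSP70 and HSP110 genes and -0.09 over the 2 further HSP90 genes, Hsp90b1 and Trap1. It was -0.02 over 17 J-domain genes, -0.03 over 18 cochaperones and -0.03 over 3 HSF genes and regulators, namely Hsf2, Hsf4 and Hsbp1. The 5 genes below the filter, Cryaa, Hspb3, Hspb7, Hspa1l and Hsf2bp, reached at most 0.65 FPKM in any library.

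The 2 of 63 genes that were lower at an unadjusted p of 0.05 in limma, against 2.89% of all genes tested, are cochaperones of HSP90. Other HSP90 cochaperones of the list went either way. Their log2 fold changes were 0.11 for Cdc37, 0.06 for Unc45a and 0.44 for Fkbp5, but -0.02 for Ahsa1, -0.05 for Stip1 and -0.05 for Ptges3. Fkbp4, which encodes FKBP52 of the steroid receptor complex, was at 110 FPKM in each of the 3 PDN libraries, against 124, 132 and 118 FPKM in control 1 to 3, with a log2 fold change of -0.18 ± 0.06 (SE). Chordc1, an HSP90 cochaperone, was at 22.1, 22.2 and 21.8 FPKM in PDN 1 to 3, against 23.8, 26.8 and 23.9 FPKM in control 1 to 3, with a log2 fold change of -0.16 ± 0.07 (SE). Both adjusted p-values were 0.999 in limma. Fkbp5, which encodes FKBP51 and is induced by glucocorticoids, was chosen after its values were seen. It was at 18.9, 8.48 and 6.09 FPKM in PDN 1 to 3, against 6.85, 7.11 and 7.35 FPKM in control 1 to 3, so PDN 1 alone stood high.

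The inducible HSP70 gene Hspa1b, also chosen after its values were seen, was low beside Hspa8. It was at 6.93, 4.08 and 4.03 FPKM in PDN 1 to 3, against 5.46, 5.0 and 4.87 FPKM in control 1 to 3, and the groups overlapped. Its near-identical copy Hspa1a is not analysed here, so its level is uncertain. Among small heat shock proteins, Cryab, the alpha-B crystallin of glia and muscle, was at 42.2 ± 2.69 FPKM in PDN and 38.6 ± 8.33 FPKM in controls (SD, n = 3 each). Hspb6 was at 2.39 ± 0.368 FPKM in PDN and 3.03 ± 0.659 FPKM in controls. Its highest value was in control 2, the library richest in muscle genes. In PDN 3, the next richest, it was at 2.28 FPKM, below PDN 1, control 1 and control 3. The part of muscle RNA in its level was not tested.

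Among HSP70 relatives, Hspa4, a nucleotide exchange factor, was at 64.6 ± 0.431 FPKM in PDN and 69.0 ± 0.911 FPKM in controls (SD, n = 3 each). Its PDN values all lay below its control values, and its log2 fold change was -0.09 ± 0.05 (SE). Of the 63 other chaperone genes tested, 5 separated in this direction, against 6.24% of all genes tested. They were Hspa4, Dnajb4, Dnajb12, Fkbp4 and Chordc1. In the other direction 1 separated, Hspa12b, against 3.69% of all genes. Among J-domain genes, Dnajb4 was at 30.8 ± 0.907 FPKM in PDN and 34.1 ± 1.47 FPKM in controls, and Dnajc2 at 10.8 ± 0.381 FPKM in PDN and 9.45 ± 1.08 FPKM in controls. The 8 subunits of TRiC, the cytosolic chaperonin that folds actin and tubulin, all had a lower estimate in PDN, against 56.6% of all genes tested. The median of their log2 fold changes was -0.06, against -0.02 over all genes tested. All 8 were also lower with either other scaling, but 6 were lower without PDN 1, 5 without control 2 and 4 without both control 2 and PDN 3. The median was then -0.019, -0.0044 and -0.00086 in that order, and it was -0.11 without PDN 2 and -0.041 with median-of-ratios scaling. Of these Cct6a was at 76.1 ± 4.13 FPKM in PDN and 82.7 ± 4.45 FPKM in controls, and Cct3 at 65.2 ± 2.76 FPKM in PDN and 69.4 ± 3.76 FPKM in controls. None of these genes passed the threshold, with adjusted p-values of 0.999 in limma.

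**Figure D4:**
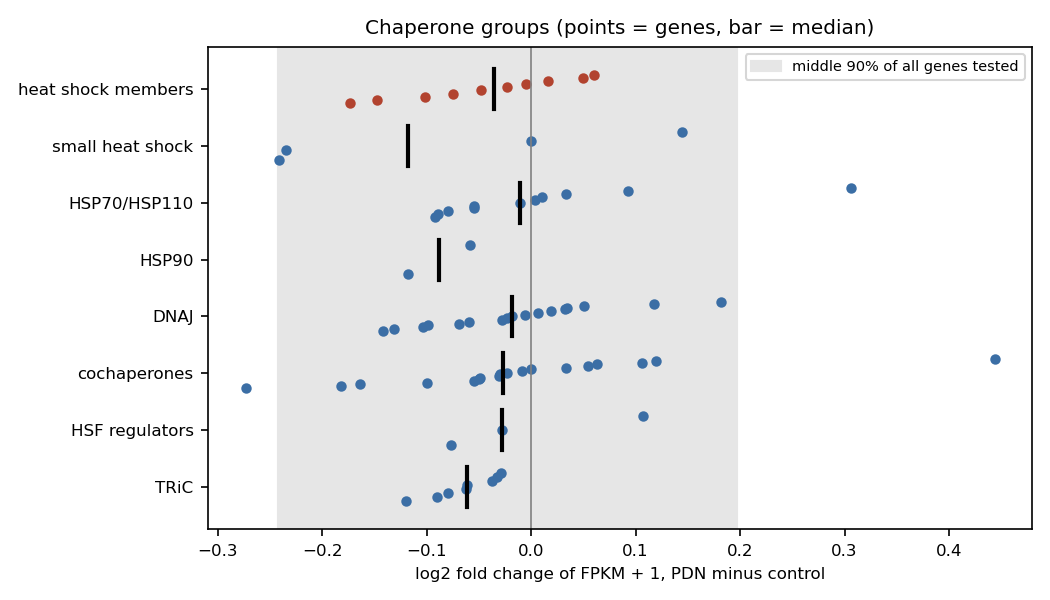
Log2 fold change of FPKM + 1, PDN minus control, of the 10 heat shock genes and of 63 other chaperone genes by group, with the median as a bar. The grey band spans the middle 90% of all genes tested, -0.24 to 0.20, and holds all 10 heat shock genes.

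The genes whose level over the 6 libraries was most like the mean of 8 of the heat shock genes, without Hsf1 and Hsp90ab1, were Cltb (r = 0.992), Hras (r = 0.990), AABR07064810.1 (r = 0.987), Setbp1 (r = 0.984) and Upf3a (r = 0.983). They are the 5 highest Pearson correlations among 13272 genes over 6 libraries. Cltb, a light chain of clathrin, was at 73.4, 68.5 and 66.3 FPKM in PDN 1 to 3, against 78.6, 73.2 and 64.8 FPKM in control 1 to 3. It was highest in control 1, as was the mean of the 8 genes by which it was chosen, so this is no separate result.

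RefSeq lists 33 pseudogenes named for Hspa8, 23 for Hsp90ab1, 20 for Hspd1, 16 for Hsp90aa1 and 1 for Hspe1, and none by that form of name for the other 5 genes. The sources used here do not say how fragments that match a gene and its copies were assigned.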

How the data were processed

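RNA of 3 PDN and 3 control rats was sequenced from strand-specific libraries made with 1 µg of total RNA, per the labels' protocols. The authors deposited FPKM per gene with a locus; the sources used here name no aligner, quantifier or build. A table named for read counts was also deposited by the authors, but its whole numbers were used as a score, in 1 alternative only. Of its values above 1000, 54.6% to 55.0% equal FPKM times genomic span times a constant of the library (relative tolerance 0.001), and none lay over 0.5% above that product. Its totals, 573396748 to 684759626 per library, are therefore not taken as depth. The planned count model was therefore not run.

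The filter kept 13282 genes with 1 FPKM or more in 3 or more libraries. Their log2(FPKM + 1) was tested by group alone in limma 3.58.1 (R 4.3.3), using the trend option of its empirical Bayes step. P-values were adjusted by Benjamini-Hochberg over all these genes. Fold changes are PDN minus control on this scale, which understates changes of low genes. Depth per gene is unknown, so no counting interval is given. The labels do not say that samples were taken independently beyond counting 3 rats per group. The 10 genes and all lists were chosen with earlier results of these data known. Named beside the 10 were, per list with at least 4 tested genes, the 2 with the smallest p, and the 5 genes most correlated with the heat shock mean. The result of 1 further marker list is not reported here.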

Additional observations from a re-analysis of the deposited data

How the results depend on the processing

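In the 15 alternatives, 0 of the 10 heat shock genes and 0 of the other chaperone genes passed the adjusted threshold in limma, and the smallest adjusted p among the 10 genes was 0.769. Hsf1, Hspa8, Hsph1, Hspd1 and Hspe1 kept the sign of their log2 fold change in all 15, with ranges of 0.01 to 0.10 for Hsf1, -0.17 to -0.06 for Hspa8, -0.23 to -0.11 for Hsph1, -0.20 to -0.11 for Hspd1 and -0.13 to -0.02 for Hspe1. The other 5 genes changed sign somewhere, always with an adjusted p above the threshold. Hspb1 became 0.016 with median-of-ratios scaling, 0.013 with upper-quartile scaling, 0.0039 in the whole-number table and 0.044 without control 2 and PDN 3. Without those 2 libraries Hsp90aa1 became 0.063 and Bag3 -0.0083. With 1 library left out at a time, the estimate ran from -0.123 to 0.146 for Hspb1, -0.078 to 0.020 for Hsp90aa1, -0.088 to 0.0028 for Hsp90ab1, -0.051 to 0.087 for Dnajb1 and -0.091 to 0.235 for Bag3. The log2 ratio of Hsp90aa1 to Hsp90ab1 then ran from -0.041 to 0.103, that of Hsph1 to Hspa8 from -0.168 to 0.024 and that of Bag3 to Hspa8 from -0.030 to 0.308. Over all genes the count past the threshold, 0, became 1 without the filter, 1 with robust empirical Bayes, 2 in the whole-number table, 9 without control 2 and PDN 3, and 0 to 6 when each library was left out. The cause of these changes was not tested. With the replicate number of the labels as a replicate block the count of calls was 0. Whether the numbers pair the rats is not known. Same-numbered libraries had correlations of deviations of 0.171, -0.12 and -0.0865. PDN 1 correlated best with control 1, PDN 2 with control 3 and PDN 3 with control 2. Such correlations cannot decide on pairing, because each group has only 3 libraries. The whole-number table is no independent check of the 10 genes, since 7 of them hold the same values there as FPKM up to a constant. Fragments per gene are unknown, so counting error could not be set apart from differences between rats.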
